A study of Bos taurus with 14 samples.

Results

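IRS2 (ENSBTAG00000012019) and PANK1 (ENSBTAG00000010442) were followed in the livers of 14 newborn heifer calves, as 2 of the 27607 genes in the count table. Both were chosen by their higher level in the calves of supplemented dams in these same libraries, so that difference is described here and not tested. Their levels in each calf, the relation between them and the effect of single calves on the difference are given below.

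The calves were females, 7 from control heifers (CON) and 7 from heifers that also ate a vitamin and mineral premix (VTM, 113 g per heifer per day). Feeding of the premix began 60 days before breeding and ran until calving. All dams were crossbred Angus-based heifers on the same basal diet, inseminated with female-selected semen of a single bull. All calves had received a colostrum replacer and then milk replacer, and the liver was taken 30 h after birth. Each library came from the polyA RNA of 1 calf, and calves are named by diet and animal number.

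The liver responds to insulin through the insulin receptor, a tyrosine kinase that phosphorylates docking proteins inside the cell. IRS2 encodes one of these docking proteins, which passes the signal to PI3-kinase and AKT. Its transcription in hepatocytes is known to be raised by FOXO factors and by glucagon signalling in the fasted state and to be lowered by insulin. PANK1 encodes a pantothenate kinase, the enzyme that phosphorylates vitamin B5 in the first and rate-controlling step of coenzyme A synthesis. Coenzyme A carries acyl groups in fatty acid oxidation, ketone body synthesis and the citric acid cycle, and PANK1 is a known target of the fatty acid sensor PPARA in liver.

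In the RefSeq annotation of cattle IRS2 has 1 transcript and lies between MYO16 and COL4A1. PANK1 has 5 RefSeq transcripts, lies between SLC16A12 and KIF20B, and holds the microRNA gene MIR107. The counts were made per gene, so the transcripts of PANK1 could not be separated. No coordinates are given, since this annotation belongs to another assembly than the counts.

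Total counts ran from 13382264 to 20125409 per library. The study left CON calf 19 and VTM calf 10 out of its comparison for low alignment, and they were left out of the fit between diets here, leaving 6 calves per diet. VTM calf 40 stood apart from the other libraries, with 15395 of the genes in the table at 0 and 318 at 1 to 9 counts, where the others had 1265 to 3349 genes at 1 to 9 counts. Of the 13311 genes kept over all calves, 1672 had no count in VTM calf 40, and 1200 of these had counts in every other calf. In CON calf 31 mitochondrial protein genes took 18.1% of the counts, and 527 kept genes were at 0. CON calf 25 had 8.57% mitochondrial counts and 191 kept genes at 0. CON calf 19 had 13079 genes of the table at 0, 1265 at 1 to 9 counts and 247 kept genes at 0. The number of distinct molecules behind a library's counts is not known, and its part in the levels of VTM calf 40 was not tested. The differences in IRS2 and PANK1 are given with and without VTM calf 40 and CON calf 31.

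Levels are given as CPM, a gene's counts relative to the library's total on a common scale, adjusted between libraries by the TMM method. The intervals are exact 95% Poisson intervals and cover counting error only, as if each count were a separate molecule. IRS2 was highest in VTM calf 4, with 405 counts and 21.1 CPM (19.1 to 23.2). VTM calf 28 followed with 241 counts and 11.7 CPM (10.3 to 13.3). The other VTM calves had 9.02 CPM in calf 10, 7.72 in calf 40, 6.64 in calf 22, 5.66 in calf 16 and 3.32 in calf 34. The VTM calves thus differed widely from each other, with calf 4 standing clear of the rest.

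Among the CON calves IRS2 was highest in calf 19, at 10.2 CPM, a library outside the fit. The others had 7.65 CPM in calf 37, 6.05 in calf 1, 4.71 in calf 13, 4.10 in calf 7 and 3.12 in calf 25. CON calf 31 was the lowest of all, with 17 counts and 1.37 CPM (0.801 to 2.20). The diets overlapped, since 2 VTM calves lay above the highest CON calf and 2 CON calves lay below the lowest VTM calf. In the order of the 14 calves, 11 of 13 neighbouring pairs had overlapping intervals. The pairs that were apart stood at the ends, VTM calf 4 above VTM calf 28 (1.79-fold) and CON calf 25 above CON calf 31 (2.27-fold).

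PANK1 was highest in VTM calf 40, with 793 counts and 47.8 CPM (44.6 to 51.3). The next VTM calf was calf 22, with 341 counts and 17.6 CPM (15.7 to 19.5). The remaining VTM calves had 15.9 CPM in calf 16, 13.9 in calf 34, 12.1 in calf 10, 8.58 in calf 4 and 7.36 in calf 28. One calf therefore lay far above a group that otherwise ran from 7.36 to 17.6 CPM, and both calves that led in IRS2 were the lowest VTM calves in PANK1.

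In the CON group PANK1 was 16.4 CPM in calf 37, 12.5 in calf 1, 10.8 in calf 7, 10.1 in calf 19, 8.01 in calf 13, 6.87 in calf 31 and 5.07 in calf 25. CON calf 37 was behind only VTM calves 40 and 22 over the 14 calves. Between neighbours in the order, 12 of 13 pairs had overlapping intervals, and only VTM calf 40 was apart from the calf below it, by 2.73-fold. Of the 7 VTM calves, 5 were above the CON median of PANK1 and 6 were above that of IRS2.

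**Figure D1:**
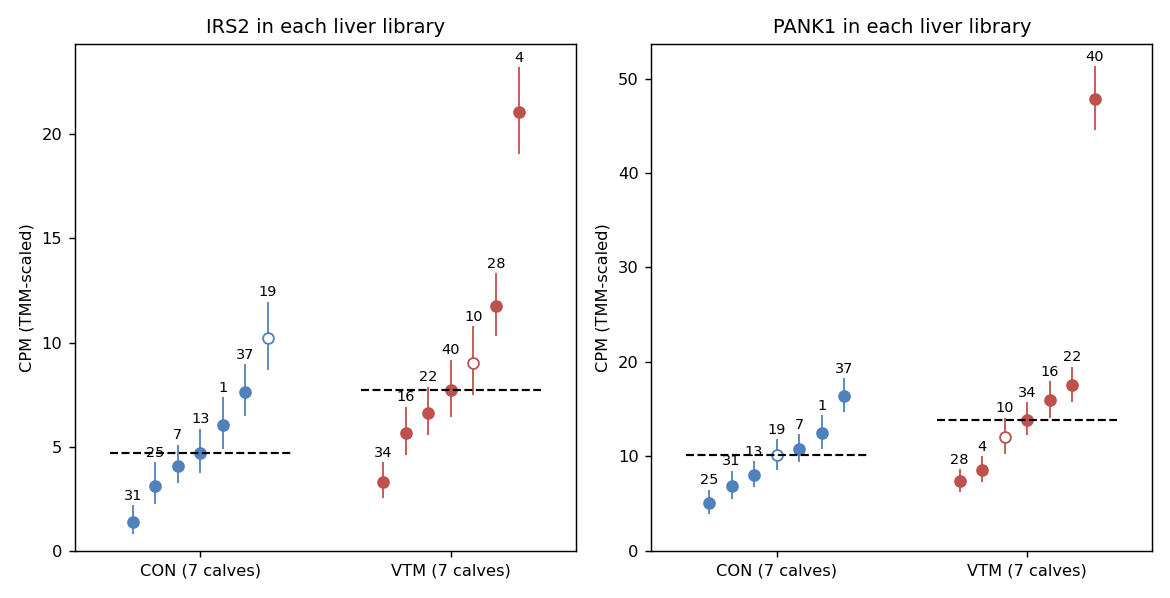
Level of IRS2 (left) and PANK1 (right) in each calf, in TMM-scaled CPM on a linear axis, by dam diet. Points are calves with their number, bars are exact 95% Poisson intervals, dashed lines are medians of 7 calves, and open points are the libraries left out of the fit. VTM calf 4 reached 21.1 CPM of IRS2 and VTM calf 40 reached 47.8 CPM of PANK1, while the other calves of the diets overlapped.

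In the 12 libraries of the fit IRS2 averaged 9.36 ± 6.37 CPM in VTM calves and 4.50 ± 2.20 CPM in CON calves (SD, n = 6). The fitted log2 fold change of VTM over CON was 1.05 with an SE of 0.45, a 2.07-fold difference. For PANK1 the means were 18.5 ± 14.9 CPM and 9.94 ± 4.14 CPM (SD, n = 6), and the log2 fold change was 0.90 with an SE of 0.43, a 1.87-fold difference. The differences of 4.86 CPM in IRS2 and 8.59 CPM in PANK1 were smaller than the SD among the VTM calves. In bulk liver, a change in the share of a cell type and a change in RNA per cell cannot be told apart.

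Genes were called at an unadjusted threshold of 0.05 and a log2 fold change of 0.5 or more in either direction. With DESeq2 both genes met it, where 1.2% of the 13307 genes tested were called higher in VTM. With edgeR's quasi-likelihood test IRS2 met it and PANK1 did not, where 0.864% of genes were called higher and 2.85% lower in VTM. Since the genes were picked on this contrast, nothing is read from these counts. No gene passed a Benjamini-Hochberg adjusted p of 0.05 with either tool. At an unadjusted p of at most 0.05 edgeR had 690 genes and DESeq2 had 880.

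Single calves carried much of the difference in both genes, and the calf was not the same. VTM calf 40 supplied 43.0% of the summed PANK1 level of the 6 fitted VTM calves, where an equal share is 16.7%. Without it, the VTM mean of PANK1 was 12.7 ± 4.50 CPM (SD, n = 5), and the difference from CON fell from 8.59 to 2.73 CPM, 31.7% of its size. The log2 fold change was then 0.35 with an SE of 0.31, a 1.27-fold difference. With all 14 libraries it was 0.82, and 0.34 once VTM calf 40 was left out. In IRS2 the same calf ranked 5 of 14, and the log2 fold change without it was 1.09.

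VTM calf 4 supplied 37.5% of the summed IRS2 level of the fitted VTM calves. Without it the VTM mean of IRS2 was 7.02 ± 3.10 CPM (SD, n = 5), and 51.8% of the difference was left. The log2 fold change was then 0.64 with an SE of 0.41, a 1.55-fold difference. The lowest calf acted on the other side, since leaving out CON calf 31 gave 0.86. With both VTM calf 4 and CON calf 31 left out the value was 0.45, a 1.36-fold difference. PANK1 without VTM calf 4 had a log2 fold change of 1.05.

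Leaving out each of the 12 calves in turn kept the log2 fold change above 0 in 12 of 12 fits for both genes. For IRS2 it ran from 0.64 without VTM calf 4 to 1.26 without CON calf 37. The range for PANK1 was from 0.35 without VTM calf 40 to 1.10 without CON calf 37. CON calf 37 was the highest of the fitted CON calves in both genes. Among the calves whose removal lowered the value of PANK1, CON calf 25 came after VTM calf 40, with 0.76.

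**Figure D2:**
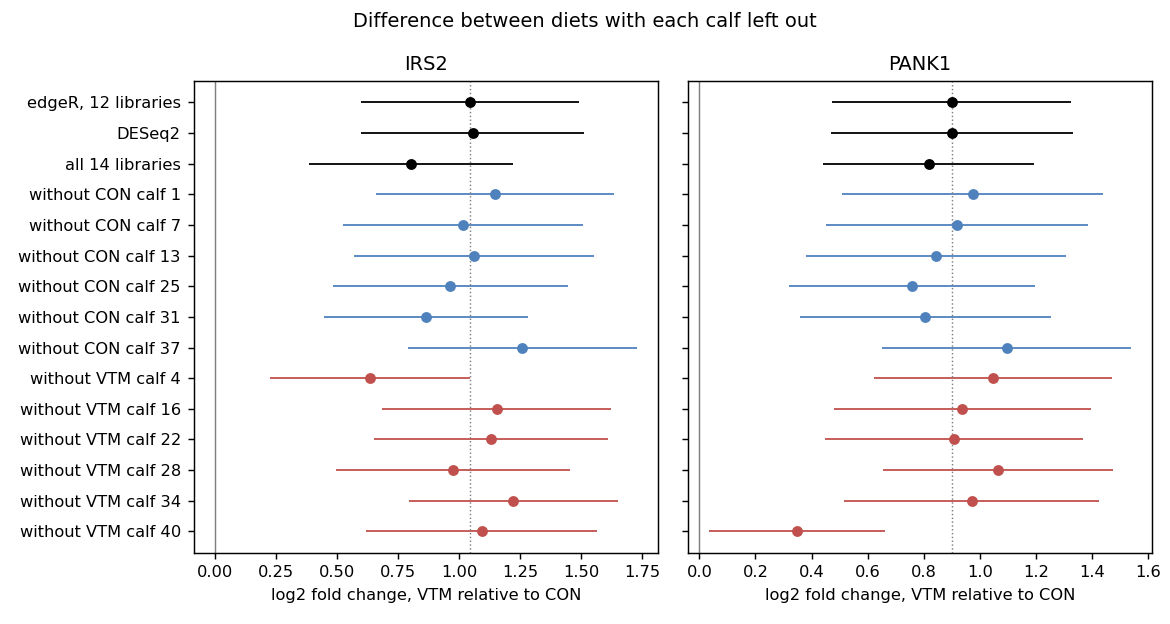
Log2 fold change of IRS2 (left) and PANK1 (right) in VTM relative to CON calves, fitted with all 12 calves, with DESeq2, with all 14 libraries and with each calf left out. Points are estimates, bars are 1 SE, the solid line marks 0 and the dotted line the value from 12 calves; PANK1 dropped to 0.35 without VTM calf 40 and IRS2 to 0.64 without VTM calf 4.

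The calves that led in IRS2 were not those that led in PANK1, whereas the lowest CON calves, 31 and 25, were low in both. The 4 calves highest in IRS2 were VTM calf 4, VTM calf 28, CON calf 19 and VTM calf 10. The 4 highest in PANK1 were VTM calf 40, VTM calf 22, CON calf 37 and VTM calf 16, so the sets shared 0 calves. A correlation over both diets would mix in the difference on which the genes were chosen, so it was taken within each diet.

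Within the 7 VTM calves the log2 levels of the genes had a Pearson r of −0.41 (exact permutation test, two-sided p = 0.355) and a Spearman rho of −0.61 (exact permutation p = 0.167). Within the 7 CON calves r was 0.66 (exact permutation p = 0.112) and rho was 0.68 (exact permutation p = 0.110). Adjusted over the 2 diets, the exact permutation p of r was 0.355 in VTM and 0.225 in CON. Neither relation passed 0.05, and the difference between the diets was not tested. The smallest p that 7 calves allow in this test is 0.000397.

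With VTM calf 40 left out, r in VTM was −0.74 over 6 calves (exact permutation p = 0.106). Without the 2 VTM calves farthest from the group's median of IRS2, calves 4 and 34, it was −0.50 over 5 calves. In CON the calves farthest out were 19 and 31, and r was 0.91 over 5 calves without them. CPM from total counts, with no TMM scaling, gave an r of 0.82 in CON (exact permutation p = 0.0321) and −0.39 in VTM (exact permutation p = 0.375). The CON relation therefore depended on the scaling for its side of the threshold, and TMM factors were lowest in CON calves 31 (0.698) and 25 (0.855), which were also the lowest CON calves in both genes.

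**Figure D3:**
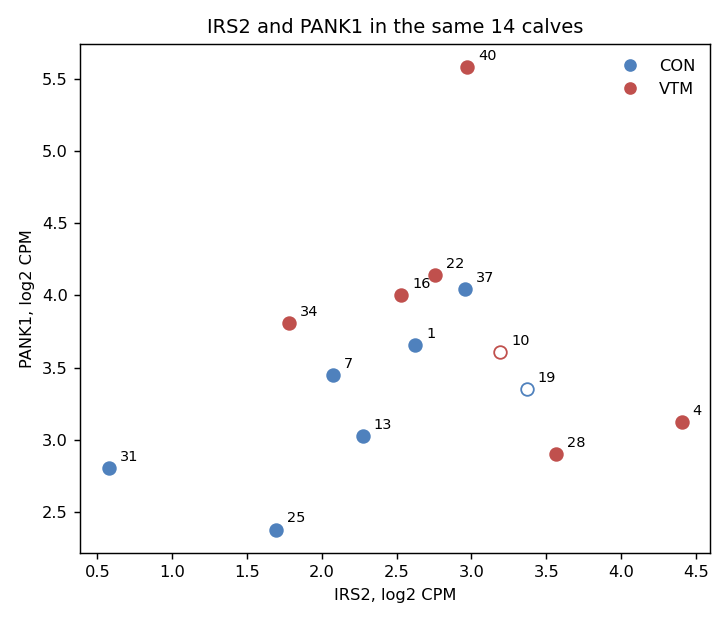
PANK1 against IRS2 in the same calf, both as log2 CPM, with calf numbers and dam diet by colour; open points are the libraries left out of the fit. CON calves run from low in both genes to higher in both (r = 0.66), whereas VTM calves 4 and 28 are high in IRS2 and low in PANK1 and VTM calf 40 is highest in PANK1.

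The spread among calves of the same diet was set beside that of genes within 0.5 of the same mean log2 CPM. For IRS2 the SD of log2 CPM was 0.83 in VTM calves and 0.92 in CON calves (n = 7 each). These values stood at the 87.1 percentile and the 79.9 percentile of 1780 genes, whose median SD was 0.44 in VTM and 0.57 in CON. PANK1 had an SD of 0.88 in VTM, at the 94.6 percentile of 2304 genes, and 0.56 in CON, at the 61.5 percentile. With all 7 calves IRS2 thus varied more than most such genes under either diet, and PANK1 mainly in VTM. Single calves gave much of this spread. The SD of PANK1 in VTM was 0.49 without VTM calf 40. For IRS2 the SD was 0.61 in VTM without VTM calf 4, and 0.61 in CON without CON calf 31.

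**Figure D4:**
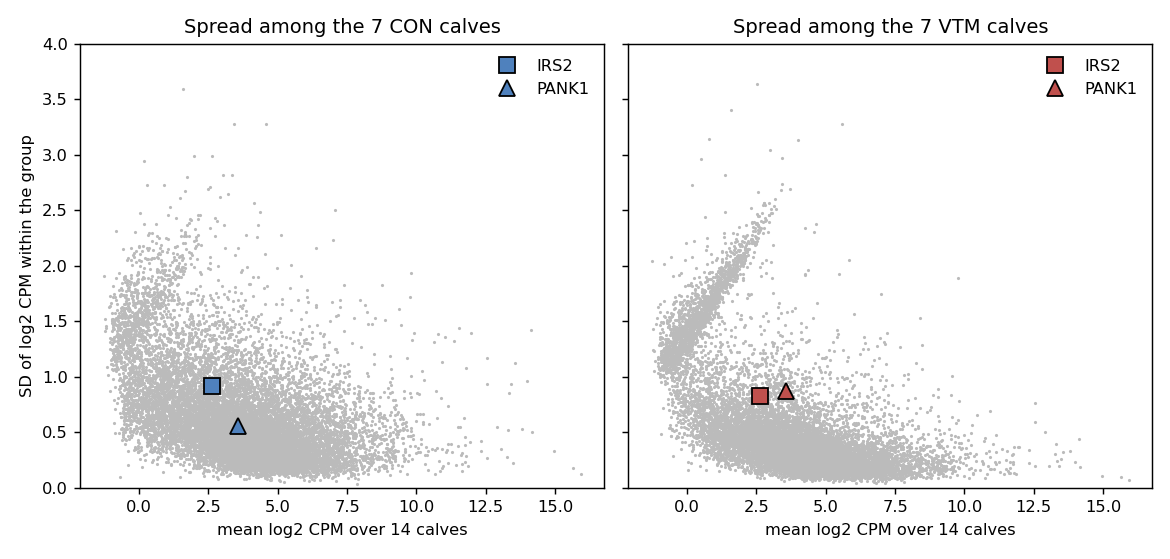
SD of log2 CPM among the 7 CON calves (left) and the 7 VTM calves (right) against the mean log2 CPM over 14 calves, for each of the 13311 genes kept (grey), with IRS2 as a square and PANK1 as a triangle. IRS2 was at 0.92 and 0.83 and PANK1 at 0.56 and 0.88. Of the genes kept, 1672 were at 0 in VTM calf 40, and their part in the rising band at the left of the VTM panel was not counted.

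Other genes of the pathways could be named for few members, because the identifiers in the table were paired with symbols only through lists the study had picked on these calves. Of 17 genes of coenzyme A synthesis and supply, 1 (PANK1 itself) had a name. Of 38 genes of insulin receptor signalling 3 did, and of 30 genes listed as induced by fasting 1 is reported. Counts of list members passing the test were therefore not made, and the values that follow are descriptions of genes already picked for this contrast or for its regulators.

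GRB14, an adaptor that binds the insulin receptor and inhibits its kinase, averaged 7.20 ± 2.07 CPM in the VTM calves and 4.35 ± 0.87 CPM in the CON calves (SD, n = 6; log2 fold change 0.73). Over all calves it ran from 4.20 to 10.2 CPM in VTM and from 3.11 to 5.24 CPM in CON, and every VTM calf but calf 34 lay above the highest CON calf. GRB14 could be named only through lists picked on these calves. The share of all genes with such a separation was not computed, so nothing is read from it. EIF4EBP1, the repressor of cap-dependent translation that mTORC1 switches off, was lower in VTM, at 43.7 ± 10.7 CPM against 72.2 ± 34.2 CPM in CON (SD, n = 6; log2 fold change −0.73). GRB14 had a level of 5.62 CPM in VTM calf 4, the calf highest in IRS2, and 10.2 CPM in VTM calf 22. IGF1, the liver's main secreted growth factor, averaged 10.6 ± 3.02 CPM in the VTM calves and 6.29 ± 2.37 CPM in the CON calves (SD, n = 6; log2 fold change 0.75). CON calf 31 was the lowest of all calves in IGF1, at 2.10 CPM, as it was in IRS2 and in 20.5% of all genes kept.

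The study's tables also placed IRS2 among its picked genes of FoxO and AMPK signalling, which were lower in VTM apart from IRS2 and IGF1. Among the FoxO genes ARAF, a RAF kinase, had a log2 fold change of −0.91, and −0.60 without CON calf 7. HOMER3, a scaffold protein, had one of −0.70, and −0.42 without CON calf 31. PLK3, a stress-responsive kinase, had one of −0.98, and −0.64 without CON calf 31. TGFB3, a TGF-beta ligand, had one of −1.17 and did not meet the edgeR criterion. Of the AMPK genes CREB3L1, a membrane-bound transcription factor, had one of −0.93 and PPP2R5B, a regulatory subunit of protein phosphatase 2A, one of −0.63. These genes were selected on the same contrast, so their common direction is no evidence about the pathways. CON calf 31 was the highest of the 14 calves in HOMER3, PLK3, EIF4EBP1 and PPP2R5B, at 20.3, 8.57, 119 and 25.7 CPM, and the lowest in IRS2. VTM calf 40 was the lowest in PLK3, CREB3L1 and PPP2R5B, at 1.33, 5.61 and 5.37 CPM, and was listed at 0 counts of TGFB3. Over all genes kept, CON calf 31 was the highest in 18.8% and VTM calf 40 the lowest in 26.4%. Such places are therefore not particular to these pathway genes.

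Both genes are known from liver as responsive to fasting. The gene reported from the fasting list was PCK2, the mitochondrial phosphoenolpyruvate carboxykinase. It averaged 219 ± 25.2 CPM in the VTM calves and 314 ± 79.2 CPM in the CON calves (SD, n = 6). Its log2 fold change was −0.53, with −0.40 without CON calf 25 and −0.46 with all 14 libraries. PCK2 was highest in CON calf 25, at 443 CPM, and next in CON calf 31, at 379 CPM, which were the lowest calves in IRS2. These libraries also had the lowest TMM factors (0.855 and 0.698), and a low factor raises CPM. PCK2 was thus lower in VTM, where IRS2 and PANK1 were higher. Whether PCK2 followed fasting in these calves was not tested. A single gene does not check the description of the pair as fasting-responsive, which is therefore not used for these calves.

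The genes most like each member were sought by Pearson r of log2 CPM over the 14 calves, as a description that includes the diet difference. IRS2 had 428 of 13310 genes at an r of at least 0.8 and PANK1 had 40. Single calves moved these numbers. Without VTM calf 40 they were 679 for IRS2 and 13 for PANK1, and without CON calf 31 they were 60 and 58.

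For IRS2 the first place went to ENSBTAG00000003536 (r = 0.94), which had no symbol. The 5 closest genes reported with a symbol were EIF2AK4 (r = 0.90), ADAT1 (0.89), TTC7A (0.88), TOP1 (0.87) and KLF12 (0.86). EIF2AK4 encodes GCN2, the kinase that senses amino acid shortage. It was at 75.5 CPM in VTM calf 4, 65.8 in VTM calf 28 and 53.3 in CON calf 19, the same calves in the same order as IRS2. EIF2AK4 ranked 16 of all genes by Pearson r, first by Spearman rho (0.95) and first without CON calf 31 (r = 0.95). ADAT1, a deaminase of tRNA, was highest in VTM calf 4 at 9.10 CPM and lowest in CON calf 31 at 1.94 CPM, the same calves as at the ends of IRS2.

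For PANK1 the first place went to ENSBTAG00000015776 (r = 0.90), also without a symbol. L3MBTL3, a reader of methylated lysines, ranked 2 of all genes (r = 0.90) and NMRK1, a nicotinamide riboside kinase of NAD synthesis, ranked 5 (r = 0.87). The next genes with a symbol were STXBP5 (0.87), NMNAT3 (0.83) and TLK1 (0.82), of which NMNAT3 encodes an adenylyltransferase that completes NAD. VTM calf 40 was the highest of the 14 calves in each of these 5 genes. That calf was also the highest in 13.99% of all genes kept, so a top place there is not particular to these genes. NMRK1 was at 25.3 CPM there against 16.9 CPM in VTM calf 22, and NMNAT3 was at 8.57 CPM (142 counts) against 2.83 CPM (55 counts). Without VTM calf 40, L3MBTL3 kept an r of 0.83 with PANK1 and ranked 5 of all genes. NMRK1 then had 0.75 and ranked 35, and STXBP5 had 0.73 and ranked 58. NMNAT3 and TLK1 were then no longer among the 5 closest genes with a symbol.

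**Figure D5:**
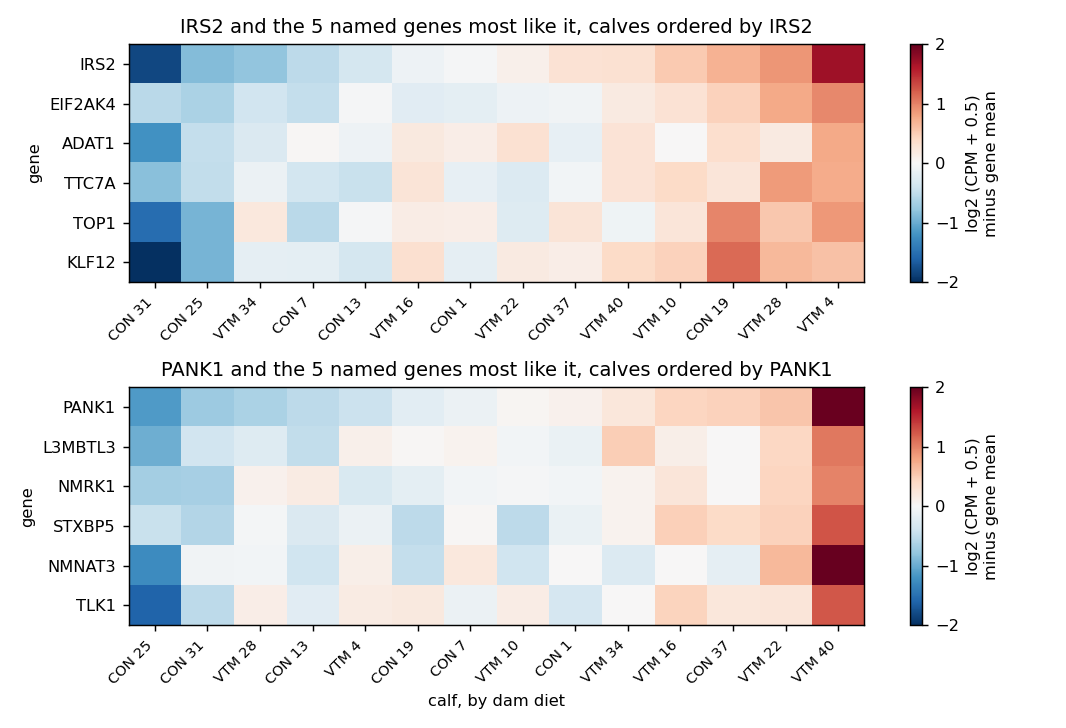
IRS2 (top) and PANK1 (bottom) with the 5 genes with a symbol whose log2 CPM followed each most closely over 14 calves. Each cell is log2 (CPM + 0.5) minus the gene's mean over the calves, limited to ±2 in colour, with calves ordered by the member; the genes near IRS2 are low in CON calf 31 and high in VTM calf 4, and those near PANK1 are highest in VTM calf 40.

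Markers of the cell types of liver are described where they could be named, which held for 9 of 49. Their names came only from the study's lists picked on these calves. The directions of their fold changes are therefore no check of cell makeup. TTR, a protein secreted by hepatocytes and the 1 of 10 hepatocyte markers with a name, was present in every library. It ran from 145 to 934 CPM in VTM and up to 2228 CPM in CON. TTR had a log2 fold change of −0.99, and −0.54 without CON calf 31. It was highest in CON calf 31, where IRS2 was lowest, and lowest in CON calf 19 and VTM calf 4, where IRS2 was high. Over all genes kept, CON calf 31 was the highest in 18.8%. The lowest was CON calf 19 in 17.6% and VTM calf 4 in 4.04%. The relation of TTR to IRS2 was not tested. The summed level of 4 of 7 stellate cell and fibroblast markers ran from 1131 to 2164 CPM in VTM and from 1181 to 3975 CPM in CON. Most of that sum was COL1A1 and COL3A1, which were lower in VTM (log2 fold changes −1.12 and −0.61), as was DCN (−0.84). LRAT, the retinol-esterifying enzyme of stellate cells, was higher in VTM (log2 fold change 0.83). Over all calves LRAT had 12.1 to 19.1 CPM in VTM against 5.91 to 15.1 CPM in CON. The 3 of 6 cholangiocyte markers summed to between 27.0 and 80.9 CPM in VTM and between 44.3 and 101 CPM in CON, with SOX9 at 0 in VTM calf 40. KRT7 and KRT19 had log2 fold changes of −0.92 and −0.64, and SOX9 one of 0.54 with 12 libraries and −0.20 with all 14. TIMD4, 1 of 8 Kupffer cell and macrophage markers, was between 5.94 and 11.2 CPM in VTM and between 2.46 and 29.2 CPM in CON. Its log2 fold change was −0.81. None of the endothelial, lymphocyte and red blood cell markers could be named, and the part of cell makeup in the levels of IRS2 and PANK1 was not tested.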

How the data were processed

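Liver polyA RNA of 14 calves was sequenced as strand-specific paired-end libraries. The authors trimmed the reads and aligned them with STAR (version 2.7.5 in the submitters' processing notes) to ARS-UCD1.2, and deposited raw gene counts for 27607 Ensembl genes, 1 column per calf. Which strand setting was counted is not given in the sources used here. Groups were taken from the treatment labels. The members and the lists were chosen with earlier results of these data known.

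Genes were filtered with filterByExpr in edgeR 4.0.16, and the counts of 12 libraries were fitted by its quasi-likelihood method after TMM scaling, with diet as the only term. DESeq2 1.42.0 and the other settings named at the end were alternatives. Levels are CPM with TMM factors from all 14 libraries, and log2 CPM used a prior count of 2. Calves are separate animals. Correlations were tested over all pairings of the calves with scipy 1.17.1. Genes beside the members were named by fixed pathway lists and as the 5 with the highest r that had a symbol. Symbols came from the study's supplementary lists (623 identifiers used), and neighbouring genes from the RefSeq table. The edgeR step was tested on simulated counts. Some items are not reported here.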

Additional observations from a re-analysis of the deposited data

Results flagged for a closer look

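The level of each of 22 named genes was examined for a calf far from the others of its diet, by Dixon's ratio on CPM with its 95% critical value for 7 calves. For normally distributed values in separate groups, chance marks about 1 in 20 in this way. Whether CPM met this was not checked, and the genes were picked on these calves, so that rate is no yardstick here. In all, 7 of 44 groups were marked. Of these, 4 were high values of VTM calf 40. PANK1 was at 47.8 CPM there, against 7.36 to 17.6 CPM in the other VTM calves, with a ratio of 0.748. That calf's high PANK1 was known when the genes were chosen, so the mark repeats it. STXBP5 was at 14.6 CPM against 3.88 to 8.26 CPM, NMNAT3 at 8.57 CPM against 1.12 to 2.83 CPM and TLK1 at 38.3 CPM against at most 21.9 CPM. These 3 genes were named for their likeness to PANK1, which VTM calf 40 shapes, so they are no separate sign of it. On the log2 scale only NMNAT3 (0.58) and TLK1 (0.64) stayed over the critical value, and the ratio of PANK1 was 0.54. No calf was marked for IRS2 in either diet.

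Among the pathway genes ARAF was at 389 CPM in CON calf 7, against 72.7 to 178 CPM in the other CON calves. HOMER3 was at 10.2 CPM in VTM calf 34, against 4.92 to 6.79 CPM in the other VTM calves. PLK3 was at 8.57 CPM in CON calf 31, against 2.33 to 4.41 CPM in the other CON calves. None of these 3 was over the critical value on the log2 scale.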

How the results depend on the processing

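The higher level of IRS2 and of PANK1 in VTM, for which they were chosen, kept its direction in every fit run. No value moved by more than the SD among calves, but leaving out 1 of 6 calves can hardly move a value that far. For PANK1 that spread was itself widened by VTM calf 40, with an SD in VTM of 0.88 with it and 0.49 without it. The mark is therefore no measure of stability, and PANK1 fell from 0.90 to 0.35 without that calf. Leaving out 1 calf gave log2 fold changes of 0.64 to 1.26 for IRS2 and of 0.35 to 1.10 for PANK1. With edgeR, IRS2 met the call criterion in 6 of 12 fits with 1 calf left out and not with all 14 libraries. PANK1 met it in 3 of 12, and with all 14 libraries and without a filter. Of 377 values of 20 other named genes, 377 kept their direction. Only 1 moved by more than the SD among calves, NMNAT3 from 1.13 to 0.39 in 14 libraries without VTM calf 40. These genes were named from lists picked on these calves and all met the DESeq2 criterion. Their kept direction was largely set by that choice and is no separate support. The number of genes past the threshold was 494 with 12 libraries, 275 with all 14, 1003 without a filter on low counts (where 19322 genes were tested), 630 with DESeq2 and 286 to 1039 with 1 calf left out. The lowest count was without CON calf 31 and the highest without CON calf 37, and the counts were 305 without CON calf 25 and 743 without CON calf 1. Within CON the correlation of the pair was 0.66, and 0.82 from total counts without TMM, where it passed 0.05. It was 0.60 to 0.74 in CON and −0.74 to −0.20 in VTM with 1 calf left out, and no such value passed 0.05. Fits without VTM calf 4 and CON calf 31 together, 14 libraries without VTM calf 40, and likeness without a calf were chosen after seeing the data. No paired analysis was possible because the calf numbers are not shared between the diets. Counts over the pathway lists were not run, since too few of their genes could be named. At 17 to 405 counts of IRS2 the relative counting error is largest in CON calf 31.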
